A study of Mus musculus with 16 samples.

Results

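The genes described here are 10 that were measured by 20 microarray probes, namely Tmem88 and Unc5b, and, beside them, Pecam1, Cdh5, Kdr, Flt1, Tek, Tie1, Vegfa and Nos3, which are widely used to mark or study blood vessels. They were taken by gene name from the 27745 gene names and 41174 probes of the array. Tmem88 and Unc5b were chosen by their log2 differences in this very diet comparison, so their diet values are a description and carry no test. What was tested for them is whether they vary from mouse to mouse together with the endothelial genes inside each diet group, a measure that choice did not use. The set of 10 genes was nonetheless drawn up with earlier results of these same arrays known.

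RNA came from the gastrocnemius, a calf muscle, of male C57BL/6N mice, 8 per group, aged 3 months when feeding began. Both groups ate a high-fat diet based on corn oil (cHF, lipids about 35% by weight) for 8 weeks with 10 mg of rosiglitazone per kg of diet, a drug that activates the nuclear receptor PPARγ. In the cHF+F+ROSI group an n-3 LC-PUFA concentrate (long-chain omega-3 fatty acids, rich in DHA and EPA) replaced 15% of the dietary lipids, and in the cHF+ROSI group it did not. All mice were fasted for 10 h by day, re-fed Chow overnight and killed the next morning, so both groups were sampled after Chow and neither group lacked rosiglitazone. Each mouse was labelled with Cy5 and hybridised against 1 common reference pool, which also held RNA of mice on other diets and was labelled with Cy3, with no dye swap, and every value below is a log2 ratio of mouse over pool. The 16 arrays lie on 4 slides of 4 arrays, and every slide carried cHF+ROSI mice at positions 1 and 3 and cHF+F+ROSI mice at positions 2 and 4, so position and diet cannot be told apart. Mice were housed in pairs, and the cage of each mouse was not used here, so the p-values measure the spread between these mice only.

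Endothelial cells line blood vessels, and in muscle they form the capillaries that run along the fibres. Muscle fibres secrete VEGF-A, the product of Vegfa, which acts on its receptors VEGFR2 (Kdr), the main signalling receptor, and VEGFR1 (Flt1), which binds the ligand tightly and signals weakly. Tek encodes TIE2, the receptor of the angiopoietins, and Tie1 its related partner. Pecam1 (CD31) and Cdh5 (VE-cadherin) hold endothelial cells together at their junctions, and Nos3 encodes endothelial nitric oxide synthase, which makes the vasodilator nitric oxide. TMEM88 is a membrane protein that binds Dishevelled and dampens Wnt/β-catenin signalling, and UNC5B is a receptor for netrins that is found on endothelial cells, where it also binds ROBO4.

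Signals were sufficient to read all 10 genes. Median Cy5 signals ran from 121.5 to 186 units over the arrays and median Cy3 signals from 79.5 to 87, and the dimmest array in Cy5 was cHF+ROSI replicate 1. That array also held the extreme score on the first principal component of the mouse-to-mouse deviations, which carried 24.0% of their variance, and results that rest on it are given with and without it. Of the 20 probes, 16 passed the filter on signal over background, with at least 1 for each gene. The brightest such probe of each gene was read as the gene's value, and all of these were well above background in both channels on 16 of 16 arrays, with no saturated spot. As the samples are whole muscle, fewer endothelial cells and less RNA per endothelial cell cannot be told apart.

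Tmem88 was lower in every cHF+F+ROSI mouse than in any cHF+ROSI mouse. In cHF+ROSI its log2 ratio had a lowest value of 0.02, a median of 0.07 and a highest of 0.25. In cHF+F+ROSI the lowest was -0.59, the median -0.38 and the highest -0.17. The groups were thus separate, with ratios above 0 in the cHF+ROSI mice and below 0 in the cHF+F+ROSI mice. Without a dye swap a ratio of 0 need not be the level of the pool, so only the difference between groups is read. The means were 0.10 ± 0.08 (SD, n = 8) and -0.40 ± 0.12 (SD, n = 8), a difference of -0.50 with an SE of 0.06, or a level 29.1% lower. By limma's p, Tmem88 ranked 1 among the 19398 probes tested, in the comparison it was chosen from. Over all of those probes, 0.0979% had groups that did not overlap with cHF+F+ROSI lower. The difference was negative within each of the 4 slides, from -0.71 to -0.33. It was carried by the Cy5 channel, where the muscle RNA was labelled (-0.52, SE 0.07), while the same spot in Cy3 differed by -0.02 (SE 0.04). The probe lies on the minus strand at chr11:69213603-69213662 of the build the array used (mm8), and gene models of that build were not used here. Of the genes next to Tmem88 on the chromosome, 3 were measured and none had an unadjusted p up to 0.05: Kdm6b, a histone demethylase, differed by -0.17 (SE 0.11), Chd3, a chromatin remodeller, by -0.27 (SE 0.13) and Naa38 by 0.06 (SE 0.07).

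Unc5b was lower too, with more spread. In cHF+ROSI the lowest value was -1.25, the median -0.94 and the highest 0.21, and this highest value came from the dim array, cHF+ROSI replicate 1. The Cy5 signal of the Unc5b spot on that array, 406.5 units, was not the highest. It was 462 and 409 units on cHF+ROSI replicates 3 and 5. In cHF+F+ROSI the lowest was -1.58, the median -1.38 and the highest -0.93. The groups overlapped, although 6 of 8 cHF+F+ROSI mice lay below every cHF+ROSI mouse. The means were -0.78 ± 0.45 (SD, n = 8) and -1.33 ± 0.19 (SD, n = 8), a difference of -0.55 with an SE of 0.16, or a level 31.7% lower. Without cHF+ROSI replicate 1 the difference was -0.41. It was negative within each of the 4 slides, from -1.11 on the slide that holds replicate 1 to -0.24. The size also moved with the processing: it was -0.91 from the scanner software's own processed signals and -0.36 when the background model was fitted to all spots. Cy5 alone gave -0.67 (SE 0.19) and Cy3 alone 0.05 (SE 0.04). The probe, the 1 on the array for this gene, lies on the minus strand at chr10:60159970-60160029 (mm8). Its signal was on average 6.04 times background in Cy5 and 4.33 times in Cy3.

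**Figure D1:**
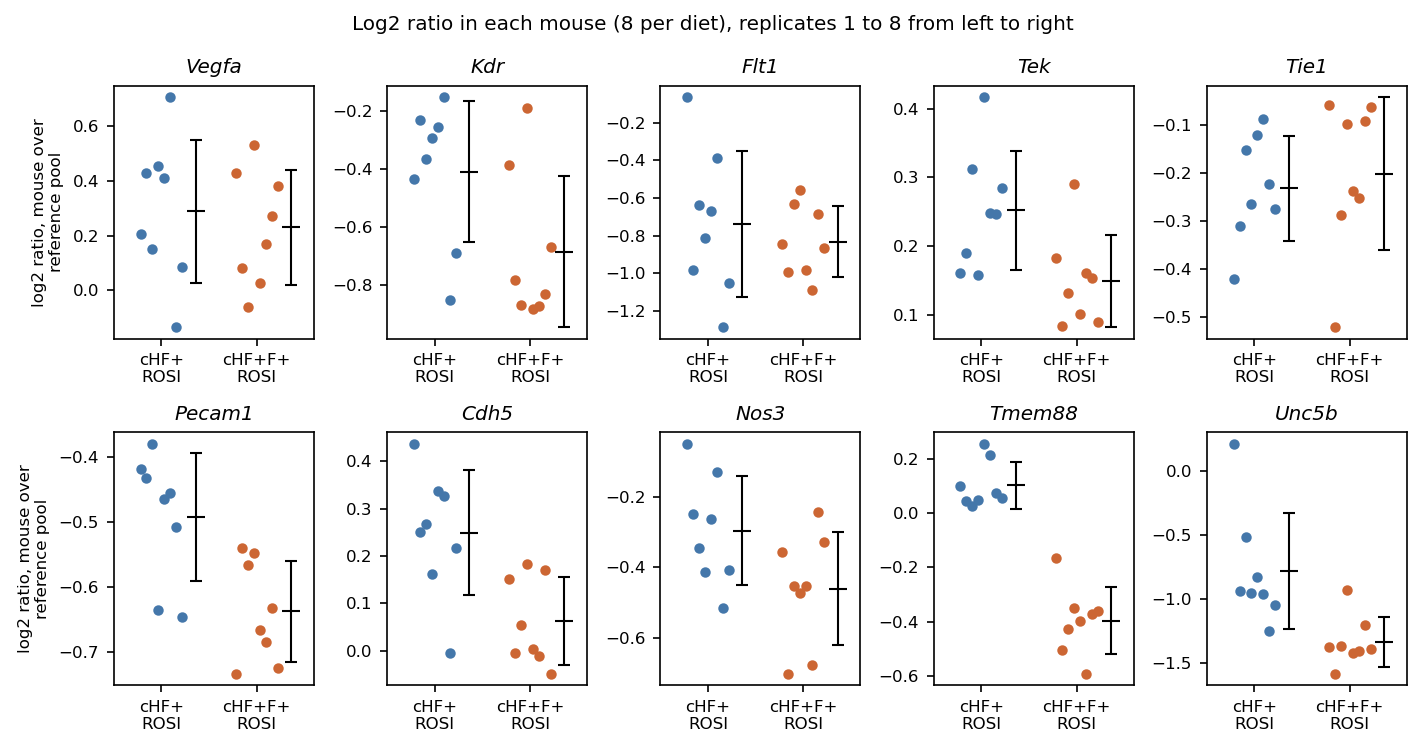
Each panel shows 1 gene and each point 1 mouse, with the log2 ratio of that mouse over the reference pool on the vertical axis (scales differ between panels); black bars are means with SD of 8 mice. Tmem88 is the gene whose groups do not overlap, and the high Unc5b point at 0.21 is cHF+ROSI replicate 1.

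Of the other 8 genes, 5 were lower in cHF+F+ROSI at an unadjusted limma p up to 0.05: Kdr, Tek, Pecam1, Cdh5 and Nos3. None of the 8 passed limma's test adjusted over all probes, and over 13 other settings the lowest adjusted p among them was 0.0946, for Cdh5. As background, 10.3% of all 19398 probes had an unadjusted p up to 0.05, 4.97% with cHF+F+ROSI lower and 5.37% with it higher, and 0.0825% had an adjusted p under 0.05. The count of 5 was not stable, since other settings gave from 2 to 5 and leaving out 1 mouse gave from 2 to 5. Averaged over the 7 endothelial genes (Vegfa left out), the log2 ratio was -0.24 ± 0.13 (SD, n = 8) in cHF+ROSI and -0.37 ± 0.10 (SD, n = 8) in cHF+F+ROSI, a difference of -0.13. The median difference over all probes was 0.00. On slide 4 the mean of the 7 endothelial genes was not lower in cHF+F+ROSI. There it was -0.45 and -0.37 in cHF+ROSI replicates 7 and 8, and -0.29 and -0.37 in cHF+F+ROSI replicates 1 and 8. Kdr, Flt1, Tie1 and Nos3 were higher in cHF+F+ROSI on this same slide (0.24, 0.31, 0.19 and 0.12), as was Vegfa (0.43). Pecam1, Cdh5 and Tek were lower on it (-0.15, -0.05 and -0.13).

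The junction genes showed the clearest of these small differences. Cdh5 ran from 0.00 to 0.44 around a median of 0.26 in cHF+ROSI, and from -0.05 to 0.18 around a median of 0.03 in cHF+F+ROSI. All 8 cHF+F+ROSI mice lay below the cHF+ROSI mean, and 6 of 8 cHF+ROSI mice lay above every cHF+F+ROSI mouse. The difference was -0.19 (SE 0.06, exact permutation p = 0.00699, limma adjusted p = 0.246), and a second probe gave -0.15 (SE 0.07). Pecam1 ran from -0.65 to -0.38 around -0.46 in cHF+ROSI and from -0.73 to -0.54 around -0.65 in cHF+F+ROSI. Here too all 8 cHF+F+ROSI mice lay below the cHF+ROSI mean. The difference was -0.14 (SE 0.05, exact permutation p = 0.00808, limma adjusted p = 0.305). The array carries 10 spots of this Pecam1 probe, and their median SD on an array, 0.06, was smaller than the SD between mice, 0.10 and 0.08. A second Pecam1 probe, too dim for the filter, gave -0.10. For both genes the difference was negative within all 4 slides.

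Among the receptors, Kdr had the largest difference of the 8 genes and a wide spread. It ran from -0.85 to -0.15 around -0.33 in cHF+ROSI and from -0.88 to -0.19 around -0.81 in cHF+F+ROSI. In all, 6 of 8 cHF+F+ROSI mice lay below the cHF+ROSI mean, and the ranges overlapped almost whole. The difference was -0.28 (SE 0.12, exact permutation p = 0.0513, limma adjusted p = 0.416), and on 1 of the 4 slides it had the opposite sign, 0.24. The 10 spots of Kdr agreed closely, with a median SD of 0.04 on an array against 0.24 and 0.26 between mice. A second Kdr probe, too dim for the filter, gave 0.03. Tek ran from 0.16 to 0.42 around 0.25 in cHF+ROSI and from 0.08 to 0.29 around 0.14 in cHF+F+ROSI. All but 1 of the 8 cHF+F+ROSI mice lay below the cHF+ROSI mean, and the difference was -0.10 (SE 0.05, exact permutation p = 0.019, limma adjusted p = 0.446). A second Tek probe gave -0.07 (SE 0.05), and Cy5 alone gave -0.06 (SE 0.07) for the first.

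Flt1 and Tie1 did not differ by more than their error. Flt1 ran from -1.29 to -0.06 in cHF+ROSI and from -1.09 to -0.56 in cHF+F+ROSI, so the second group lay inside the first. Its difference was -0.10 with a 95% interval from -0.39 to 0.20, and the other kept probes gave 0.02 and -0.04. Flt1 probes too dim for the filter gave -0.05 and 0.01. Tie1 ran from -0.42 to -0.09 in cHF+ROSI and from -0.52 to -0.06 in cHF+F+ROSI. Its difference was 0.03 with an interval from -0.11 to 0.17, the only positive one among the 10 genes by the brightest probe.

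The ligand Vegfa ran from -0.13 to 0.71 around 0.31 in cHF+ROSI and from -0.06 to 0.53 around 0.22 in cHF+F+ROSI. The difference was -0.06 (SE 0.11, 95% interval -0.29 to 0.17), and its other probes gave -0.10 and -0.20. Cy5 alone gave -0.39 (SE 0.25), while Cy3, the pool, differed by -0.32 (SE 0.18) at the same spot. On 3 of the 4 slides it was negative and on the other it was 0.43. Nos3, the nitric oxide synthase, ran from -0.51 to -0.05 around -0.30 in cHF+ROSI and from -0.70 to -0.24 around -0.45 in cHF+F+ROSI. All but 1 of the 8 cHF+F+ROSI mice lay below the cHF+ROSI mean. The difference was -0.16 (SE 0.08, exact permutation p = 0.0578, limma adjusted p = 0.47), negative on 3 of the 4 slides and 0.12 on the other.

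**Figure D2:**
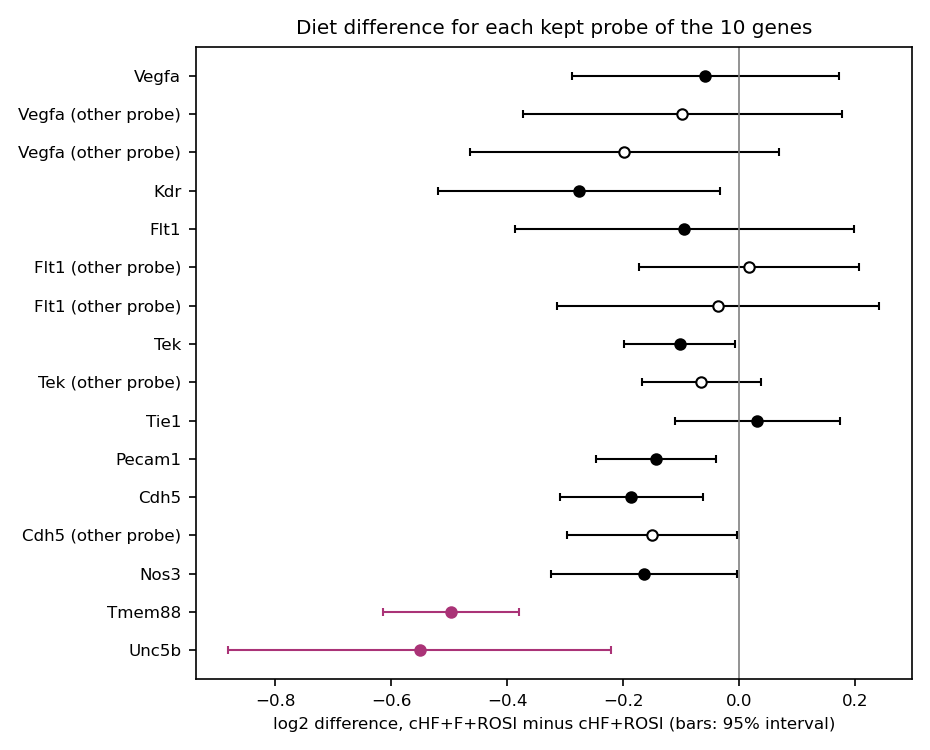
The log2 difference, cHF+F+ROSI minus cHF+ROSI, for the 16 kept probes, with 95% intervals from limma; filled points are the brightest probe of a gene and open points its other probes. Tmem88 and Unc5b (coloured) were chosen for this difference; the other genes lie between -0.28 and 0.03.

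Whether Tmem88 and Unc5b follow the endothelial genes was asked of the 16 deviations of each mouse from the mean of its own diet group, so that the diet difference itself could not produce a relation. Tmem88 rose and fell with the mean of the 7 endothelial genes (Pearson r = 0.61, permutation p = 0.0109, adjusted over the 3 relations p = 0.0164). Spearman's rho was 0.67 (permutation p = 0.00584, adjusted 0.00876). Without the pair of mice farthest from the median of the endothelial mean r was 0.69, and without cHF+ROSI replicate 1 it was 0.64. Within cHF+ROSI alone r was 0.55 (exact permutation p = 0.16, adjusted 0.241, n = 8). Within cHF+F+ROSI alone it was 0.71 (exact permutation p = 0.0453, adjusted 0.068, n = 8), so by r neither group alone passed the adjusted threshold. A slide holds 2 mice per diet, too few for a value of its own. With slide means taken out as well, r was 0.78 (adjusted permutation p = 0.00123). The permutation moved mice across slides within a diet, so this p does not allow for the slides and is not read as stronger evidence.

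Unc5b did so as well, with r = 0.66 (permutation p = 0.00578, adjusted 0.0164) and rho = 0.72 (permutation p = 0.00271, adjusted 0.00813). Without the pair of mice farthest from the median of the endothelial mean r was 0.53. Without cHF+ROSI replicate 1, which had the highest Unc5b log2 ratio, it was 0.75. Within cHF+ROSI r was 0.63 (exact permutation p = 0.0822, adjusted 0.241, n = 8) and within cHF+F+ROSI 0.86 (exact permutation p = 0.00186, adjusted 0.00558, n = 8). Without the 2 mice of each group farthest from its median of the endothelial mean, these fell to 0.43 and 0.61. Taking out slide means gave 0.68 (adjusted permutation p = 0.00307, with the same limit on this p).

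Tmem88 and Unc5b showed no detectable relation to each other. Their r was 0.08 (permutation p = 0.743, adjusted 0.743) and rho 0.28 (permutation p = 0.284, adjusted 0.284), and without the pair of mice farthest from the median of Unc5b r was 0.09. It was -0.03 within cHF+ROSI (exact permutation p = 0.943, n = 8) and 0.30 within cHF+F+ROSI (exact permutation p = 0.433, n = 8). With 16 mice a weak relation could not have been detected.

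Both relations with the endothelial mean depended on how the arrays were processed. With only the median of each array centred, r was 0.43 for Tmem88 and 0.48 for Unc5b (adjusted permutation p = 0.145 for each), and in the table the authors deposited it was 0.48 (adjusted permutation p = 0.111) and 0.28 (adjusted permutation p = 0.348). Set against 20 other endothelial markers in place of the 7 genes, Tmem88 had r = 0.50 (adjusted permutation p = 0.179) and Unc5b r = 0.18 (adjusted permutation p = 0.702). In the deposited table the r of Tmem88 with Unc5b was -0.54 (adjusted permutation p = 0.111).

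**Figure D3:**
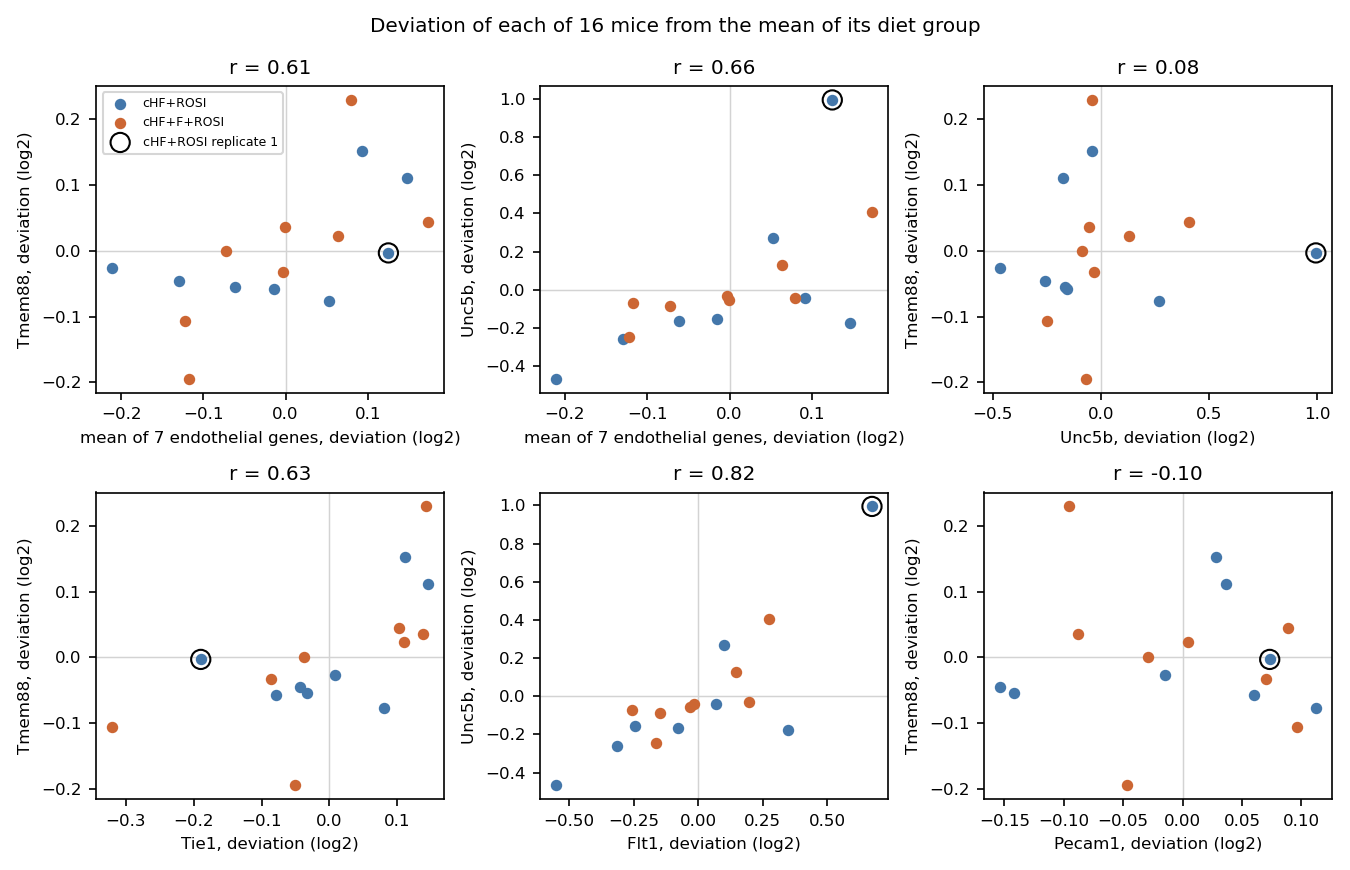
Each point is 1 of 16 mice, and both axes give its log2 deviation from the mean of its diet group; the ringed point is cHF+ROSI replicate 1. Tmem88 and Unc5b each rise along the endothelial mean (r = 0.61 and 0.66) and show little relation to each other (r = 0.08); the ringed mouse is the highest for Unc5b and Flt1.

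Each of the pair was then set against the endothelial genes singly. In all, 16 relations were computed, Tmem88 and Unc5b each with 8 genes, and adjusted together. Tmem88 had its highest r with the angiopoietin co-receptor Tie1 (r = 0.63, permutation p = 0.0204, adjusted 0.0673; rho = 0.75, permutation p = 0.00168, adjusted 0.0127; r = 0.72 without the 2 farthest mice). Next came Nos3 (r = 0.61, permutation p = 0.0158, adjusted 0.0673; rho = 0.64, permutation p = 0.0108, adjusted 0.0431; r = 0.64 without the 2 farthest). By r these missed the adjusted threshold and by rho they passed it. Its r with Pecam1 was -0.10 (permutation p = 0.704, adjusted 0.804; rho = -0.16, permutation p = 0.555, adjusted 0.592; r = -0.32 without the 2 farthest).

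Unc5b had its highest r with the VEGF receptor Flt1 (r = 0.82, permutation p = 0.00057, adjusted 0.00912; rho = 0.74, permutation p = 0.00213, adjusted 0.0127) and then with Cdh5 (r = 0.73, permutation p = 0.00489, adjusted 0.0391; rho = 0.71, permutation p = 0.00238, adjusted 0.0127). Without the 2 mice farthest in each case these were 0.57 and 0.54, so both leaned on the extreme mice. Without cHF+ROSI replicate 1 they were 0.68 (adjusted permutation p = 0.0473) and 0.69 (adjusted permutation p = 0.0473). The call on Unc5b with Cdh5 was fragile. It was lost in 8 of the 16 fits that left out 1 mouse, namely cHF+ROSI replicate 2, 4 or 8 or cHF+F+ROSI replicate 2, 4, 5, 6 or 7, with adjusted permutation p up to 0.0876. It was also lost in 7 of 10 other settings, with r down to 0.20 in the deposited table and 0.23 in Cy5 alone. Unc5b with Flt1 kept its call in all 16 fits that left out 1 mouse and lost it with normexp fitted on all spots (r = 0.54, adjusted permutation p = 0.111). The other kept Flt1 probes gave 0.62 and 0.68 with Unc5b, and the second Cdh5 probe gave 0.19. With Tie1, Unc5b had r = -0.06 (permutation p = 0.802, adjusted 0.855; rho = 0.10, permutation p = 0.718, adjusted 0.718; r = 0.38 without the 2 farthest), but 0.49 without cHF+ROSI replicate 1. The remaining relations of Tmem88 had r from 0.35 to 0.53 and those of Unc5b from 0.05 to 0.56, and by r none of them passed the adjusted threshold. For Tmem88 with Vegfa r depended on the probe, with 0.52 for the brightest and 0.74 and 0.26 for the others. The same held for genes of the endothelial mean. With Tmem88 the brightest and second probes gave 0.39 and 0.01 for Tek, and 0.47 and 0.21 for Cdh5. For Flt1 the brightest gave 0.35 and the others 0.38 and -0.14. That Tmem88 and Unc5b differ in their partners was not itself tested.

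The promoter table held 6 of the 10 genes, and Tmem88 was not among them. Unc5b and Flt1, the pair with the highest r of the 16, are shown as the 250 bases before their start (RefSeq, GRCm38.p6), 5′ to 3′ on the gene's strand. Capitals mark GGAA, the core bound by ETS factors, which are major regulators of endothelial genes, searched on both strands (TTCC is GGAA on the other strand). No second motif was searched.
Unc5b, minus strand of chr10:60831582-60831831: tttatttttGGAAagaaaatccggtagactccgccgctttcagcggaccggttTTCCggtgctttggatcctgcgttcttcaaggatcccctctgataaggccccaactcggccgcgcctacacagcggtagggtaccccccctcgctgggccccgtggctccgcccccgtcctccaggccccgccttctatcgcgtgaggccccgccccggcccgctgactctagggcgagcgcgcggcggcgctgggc
Flt1, minus strand of chr5:147726012-147726261: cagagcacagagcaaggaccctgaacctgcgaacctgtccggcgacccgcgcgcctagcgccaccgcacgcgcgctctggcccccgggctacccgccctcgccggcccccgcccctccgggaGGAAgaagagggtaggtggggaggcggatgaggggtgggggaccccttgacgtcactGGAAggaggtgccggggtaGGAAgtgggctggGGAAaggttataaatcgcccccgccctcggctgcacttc
Unc5b held 2 matches and Flt1 4. Of 32851 promoters listed, 93.4% held at least 1, with a median of 3 each, so holding it does not set these promoters apart, and a match is a run of letters and not a binding site.

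Among the genes themselves, the closest relation was that of the ligand Vegfa with its receptor Kdr, a pair singled out after the values were seen. Their r over 16 mice was 0.88 and rho 0.88, each with a permutation p of 1e-05, the smallest that 100000 permutations can give (0.00045 after Bonferroni adjustment over the 45 pairs of the 10 genes). It was 0.92 within cHF+ROSI and 0.85 within cHF+F+ROSI, and 0.83 without the 2 mice farthest in Kdr. The other Vegfa probes gave 0.79 and 0.75 with Kdr. The relation lost its call in the Cy5 channel alone (r = 0.49, Bonferroni-adjusted permutation p = 1). Over the 21 pairs of the 7 endothelial genes r ran from -0.23 to 0.83 with a median of 0.37, and 19 were above 0. The highest of them was Flt1 with Cdh5 and the lowest Pecam1 with Tie1.

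**Figure D4:**
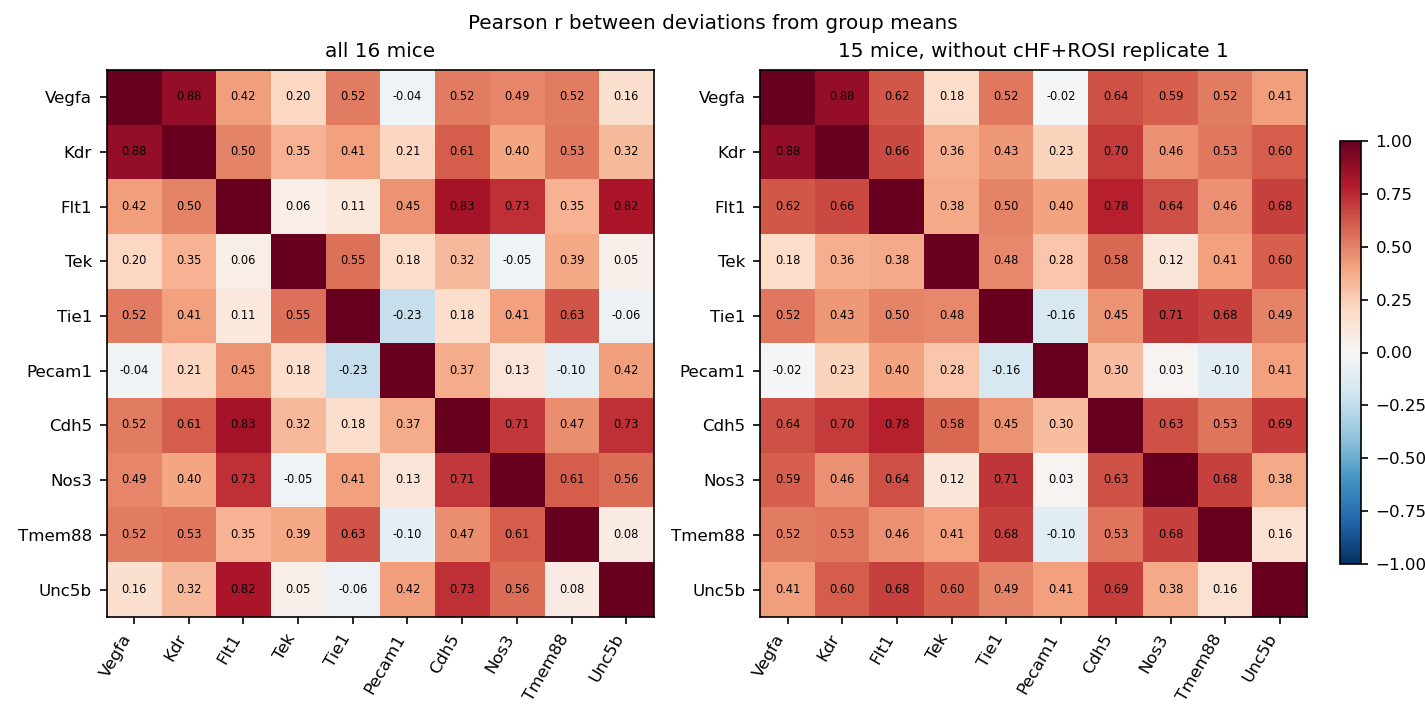
Pearson r between the deviations of each pair of the 10 genes, over all 16 mice (left) and without cHF+ROSI replicate 1 (right); red is positive, blue negative. The Vegfa and Kdr cell (0.88) is the same in both. Without the dim array the Unc5b row is higher with Kdr, Tek and Tie1 (0.60, 0.60 and 0.49). None of these 3 passes (adjusted permutation p = 0.0745, 0.0785 and 0.102). The same row is lower with Flt1 and Nos3 (0.68 and 0.38).

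Over all 18803 probes with a value on every array, those most like Tmem88 were 1700020C11Rik, Arhgef15, Zadh1, AI553587 and Gnrh1, with r from 0.80 to 0.81 over 16 mice. Icam2, an adhesion molecule of endothelial cells, had rank 10 with r = 0.78. Tie1 and Nos3 had ranks 202 and 271 with Tmem88, and Pecam1 had rank 11409. Tmem88 had r over 0.7 with 66 probes. Those most like Unc5b were Bat2d, Pofut1, Msi2, Tmem2 and Taok1, with r from 0.93 to 0.95, and Unc5b had r over 0.7 with 859 probes. Flt1 and Cdh5 had ranks 232 and 659 with Unc5b. Many other probes thus lay closer to Tmem88 or Unc5b than the endothelial genes they were set against. Unc5b also followed the first principal component (r = 0.80), on which cHF+ROSI replicate 1 is extreme, whereas Tmem88 did not (r = -0.03) and Flt1 did (r = 0.76). The r with this component was 0.48 for Cdh5, 0.46 for Nos3 and 0.33 for Pecam1. It was 0.04 for Kdr, -0.003 for Vegfa, -0.36 for Tek and -0.38 for Tie1. From Flt1 to Tie1 the genes thus stood in the same order as by their r with Unc5b. Whether the relations of Unc5b are apart from this component was not tested. These values are a description; all come from the same 16 arrays, and the part of array brightness in them was not tested. Without cHF+ROSI replicate 1 the probe most like Unc5b was Larp5 (r = 0.93), and Bat2d had r = 0.84. For Tmem88 it was then BC043118 (r = 0.87). The probes named first for Tmem88 then had ranks from 6 to 19, and Icam2 had rank 34.

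Genes around the 10 were read from lists of vascular and muscle cell genes, by the brightest kept probe of each. Of 22 endothelial markers, 20 were measured, 17 were below 0 and 6 were lower at an unadjusted p up to 0.05, that is 30% of them against 10.3% of all probes. Their median difference was -0.11, none passed limma's adjusted test, and the count of 6 ran from 4 to 8 over the other settings. The 6 were Cldn5, a tight-junction claudin (-0.42, SE 0.14), Cd93, a surface glycoprotein (-0.33, SE 0.14), the transcription factors Sox18 (-0.32, SE 0.10) and Sox17 (-0.19, SE 0.08), Eng, a TGF-β co-receptor (-0.31, SE 0.09), and Emcn, endomucin (-0.24, SE 0.07). Other markers did not follow: Vwf, von Willebrand factor, differed by 0.21 (SE 0.13) and Erg by 0.03 (SE 0.06). Within groups Tmem88 had a positive r with 17 of these 20 (median 0.31) and Unc5b with 14 (median 0.14), beside medians of -0.02 and -0.01 over all probes.

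Among 9 further VEGF, angiopoietin and apelin genes the median was -0.14. Vegfc (-0.29, SE 0.10), Angpt2, the TIE2 ligand that opposes angiopoietin-1 in resting vessels (-0.17, SE 0.07), and Apln (-0.15, SE 0.06) were lower at an unadjusted p up to 0.05. Figf, which encodes VEGF-D, was higher (0.26, SE 0.07), so that 44.4% of the list reached that p, against 10.3% of all probes. None of the 9 passed limma's adjusted test. Of 4 measured netrin and UNC5 genes none reached that p, and the median was -0.06. Rgma, a ligand of the netrin receptor neogenin, had the largest difference (-0.15, SE 0.10), and the netrins Ntn1 and Ntn4 did not pass the filter. Of 17 measured Wnt and Dishevelled genes, 1 was lower, Axin2, a feedback target of Wnt signalling (-0.20, SE 0.07), and 1 was higher, Rnf43, a ligase that removes Wnt receptors (0.16, SE 0.07), 11.8% of them together against the background of 10.3%. The Dishevelled genes Dvl1, Dvl2 and Dvl3 differed by 0.14 (SE 0.08), 0.02 (SE 0.05) and -0.06 (SE 0.05).

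The next lists held few such genes, to be read against the same 10.3% of all probes. Of 10 endothelial Notch genes, 1 (10%) was lower at that p, the Notch target Hey1 (-0.24, SE 0.09), with a median of -0.03. Of 7 nitric oxide genes, 1 (14.3%) was lower, Ddah2 (-0.18, SE 0.08), with a median of -0.09. Of 10 flow-responsive and arteriovenous genes, 2 (20%) were lower, the flow-induced factor Klf4 (-0.59, SE 0.18) and the venous receptor Ephb4 (-0.14, SE 0.05), with a median of -0.12. Of 12 hypoxia targets, 1 (8.33%) was lower, Ankrd37 (-0.32, SE 0.08), and the median was 0.04.

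Markers of other cell types in muscle were read in the same way. Of 10 pericyte and smooth muscle markers, Rgs5 (-0.44, SE 0.17) and Kcnj8 (-0.19, SE 0.08) were lower and Abcc9 higher (0.22, SE 0.08), 30% of them together against 10.3% of all probes, with a median of -0.06. Rgs5 also had r = 0.86 with Unc5b within groups, and 0.64 without cHF+ROSI replicate 1. Of 8 fibroblast markers 1 (12.5%, against the same 10.3%) was lower, Pi16 (-0.63, SE 0.25), with a median of -0.05. No gene of the lymphatic (3 measured, median -0.03), macrophage (9, median 0.03), adipocyte (7, median 0.37), red blood cell (3, median 0.19) and slow fibre lists (8, median -0.43) had an unadjusted p up to 0.05. The slow fibre and adipocyte lists nonetheless varied widely between mice. The mean over the slow fibre genes ran from -1.22 to 0.68 in cHF+ROSI and from -2.22 to 0.29 in cHF+F+ROSI, and that over the adipocyte genes from -0.84 to 0.47 and from -1.26 to 1.08. Their part in the endothelial differences was not tested.

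**Figure D5:**
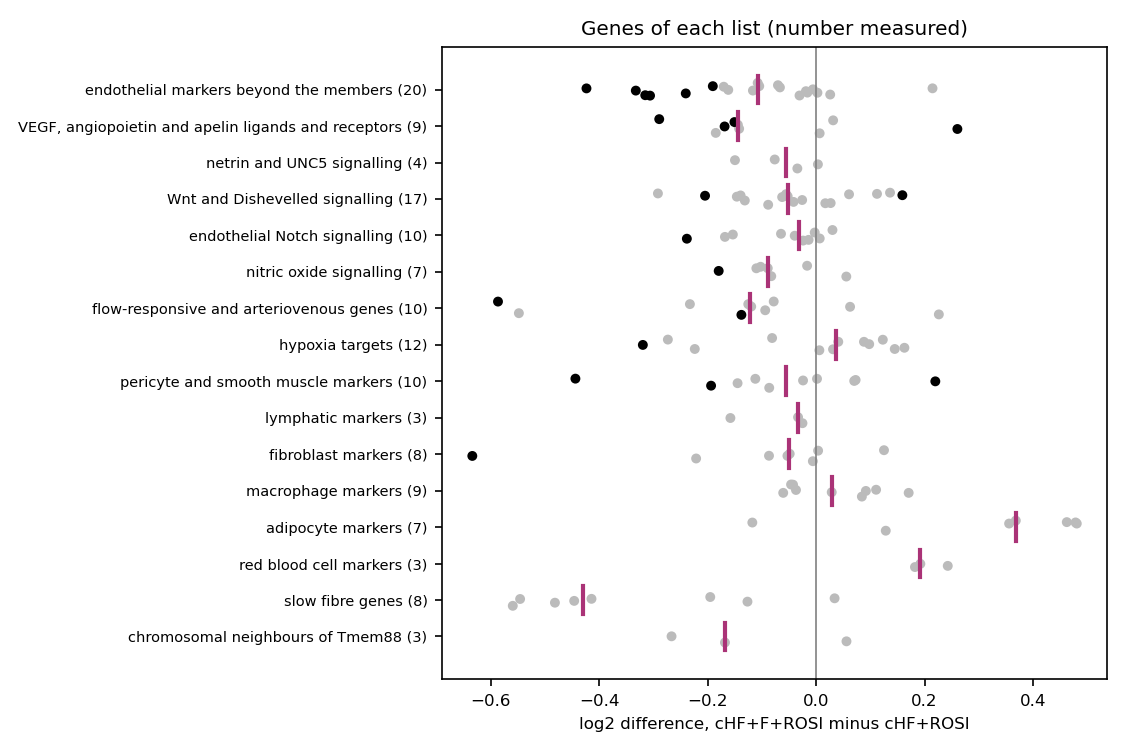
Log2 differences, cHF+F+ROSI minus cHF+ROSI, of the measured genes in each list (number in brackets); black points have an unadjusted p up to 0.05, grey points do not, and the coloured bar is the list's median. The endothelial markers lie mostly left of 0, with a median of -0.11, while the slow fibre and adipocyte medians of -0.43 and 0.37 come from genes that vary widely between mice.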

How the data were processed

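Muscle RNA of 16 mice was hybridised on 2-colour Agilent mouse arrays. The files the authors deposited hold Feature Extraction spot intensity values (version 10.5.1.1 per the file headers; the labels name 10.5.5.1) and a table of log2 ratio values, for which the authors dropped dim spots, log-transformed the signals and normalized Cy5 against Cy3. That table's cHF+F+ROSI columns could be tied to the group and not to a mouse.

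From the scanner files, median signals were background-corrected with normexp (offset 50) in limma 3.58.1 (R 4.3.3). Spots with a local background above the 99.9th percentile of an array and channel were left out: with them, the fitted background mean fell to -991 units on cHF+ROSI replicate 1, where an Unc5b signal of 406.5 became 1389 after correction. This choice was made after seeing the files. A probe had to average 2 times its background or more in Cy5 and in Cy3 (19398 did). Flagged spots were dropped, arrays loess-normalized and spots of a probe averaged. The number of arrays, 8 per group, limits the precision. Diets were compared with lmFit and eBayes over all probes, with Benjamini-Hochberg adjustment. Relations used deviations from group means, with 100000 permutations of mice within groups (2-sided), or all 40320 pairings within 1 group (exact, 2-sided). The code was tested on simulated data.

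The members and gene lists were chosen with earlier results of these data known. Every member is named, and of each list the genes with an unadjusted p up to 0.05, or else the gene with the largest difference; for the lymphatic, macrophage, adipocyte, red blood cell and slow fibre lists the median stands in for that gene, and Vwf, Erg, Icam2, the Dishevelled genes and the neighbours of Tmem88 were named after their values were seen. Same-numbered mice did not vary together (r from -0.27 to 0.34 over the 8 numbers), so the numbers did not pair them. Alternatives were no background correction, the scanner's processed signals, median centring, scale normalization, Cy5 alone, the deposited table, no filter, a slide or replicate block, the methods' t-test, array weights, flagged spots kept and leaving out each array, and, chosen after seeing the data, normexp on all spots.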

Additional observations from a re-analysis of the deposited data

How the results depend on the processing

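The mean diet difference of the 7 endothelial genes moved little, from -0.14 to -0.11 over 13 other settings and from -0.16 to -0.11 when 1 array was left out. The number of members lower at an unadjusted p up to 0.05, 5 of 8, was 3 with the scanner's processed signals, median centring and the replicate block, and 2 with scale normalization, Cy5 alone, the deposited table and normexp on all spots. Leaving out 1 array gave 2 to 5, and it fell to 2 or 3 without cHF+ROSI replicate 2, 5 or 6 or cHF+F+ROSI replicate 2, 3, 5, 6 or 7.

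The relation of Tmem88 with the endothelial mean (r = 0.61) lost its call with median centring (0.43), Cy5 alone (0.49), the deposited table (0.48), the 20 other endothelial markers (0.50) and the replicate block (0.65, 8 pairs). That of Unc5b (0.66) did so with median centring (0.48), scale normalization (0.55), Cy5 alone (0.55), the deposited table (0.28), the 20 other markers (0.18) and the replicate block (0.53). With 1 array left out they ran from 0.56 to 0.67 and from 0.59 to 0.77, each still past the threshold. The r of Tmem88 with Unc5b (0.08) was -0.38 with median centring, -0.10 with Cy5 alone, -0.54 in the deposited table and -0.28 with the replicate block, and from 0.03 to 0.16 with 1 array left out. A second Unc5b probe was planned and could not be run, since the array has 1. The cause of these changes was not tested. The replicate numbers do not pair the mice, and the block moved no member's diet difference across the adjusted threshold. Over the 8 pairs of that block the relations of Unc5b with Cdh5 (r = 0.63), Unc5b with Flt1 (0.74) and Kdr with Vegfa (0.94) did not pass the adjusted permutation test.

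Relations near 0 changed sign. Unc5b with Tek (0.05) was -0.30 with processed signals, -0.21 with median centring, -0.24 with Cy5 alone, -0.41 in the deposited table, -0.016 without the filter and -0.52 with normexp on all spots, and ran from -0.15 to 0.60 with 1 array left out. Unc5b with Tie1 (-0.06) was 0.015 with processed signals, 0.18 with Cy5 alone, 0.42 with normexp on all spots and 0.27 with slide means taken out, and ran from -0.27 to 0.49 with 1 array left out. Unc5b with Vegfa (0.16) was -0.048 with median centring, -0.064 with Cy5 alone, -0.17 in the deposited table and -0.070 with normexp on all spots, and ran from -0.047 to 0.41 with 1 array left out. Tmem88 with Pecam1 (-0.10) was 0.054 with scale normalization, 0.085 with Cy5 alone, 0.23 with normexp on all spots, 0.15 with the replicate block and 0.22 with slide means taken out, and ran from -0.22 to 0.12 with 1 array left out. Unc5b with Pecam1 was -0.028 with scale normalization, Tmem88 with Flt1 -0.12 in the deposited table, and Tmem88 with Tek -0.080 with normexp on all spots. The diet difference of Flt1 was 0.00 (0.00096) without cHF+ROSI replicate 1 and that of Vegfa 0.00 (0.00076) without cHF+ROSI replicate 6.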
